A study of Mus musculus with 6 samples.

Results

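The UDP-glucuronosyltransferases are enzymes of the endoplasmic reticulum that attach a sugar to small lipophilic molecules. The following genes of the mouse family were chosen by name: Ugt1a1, Ugt2a3, Ugt2b1, Ugt2b5, Ugt2b34, Ugt2b35, Ugt2b36, Ugt2b38, Ugt3a1 and Ugt3a2. Of these 10 genes, 9 had an array probe (a transcript cluster) annotated with their symbol alone, out of 22180 genes with such a probe. Ugt1a1 had none and was read from probes that carry several Ugt1a symbols, which are kept apart. A gene was tested where its mean log2 level over the 6 arrays reached 2.65, the median level of all probes. This left 13493 genes, 8 of the members among them, while Ugt2b38 lay under that level. The 3 Vascepa samples were livers of male C57BL/6 mice given Vascepa, a drug whose agent is icosapent ethyl, an ester of the omega-3 fatty acid known as eicosapentaenoic acid, for 7 days and then a high-fat diet for 6 weeks. The 3 vehicle samples were livers of male C57BL/6 mice given vehicle for 7 days and then the same diet for 6 weeks. The mice were 8 weeks old before they were acclimatised. Every mouse had the high-fat diet, so the comparison asks how livers on that diet differed after earlier Vascepa. The labels do not state whether replicates are separate animals, so a p-value here reflects the spread among the arrays and that spread may be technical.

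Glucuronidation couples glucuronic acid, carried by UDP-glucuronic acid, to bilirubin, steroids, bile acids, fatty acid products and many drugs, which makes them soluble enough to leave in bile or urine. The Ugt1a genes share their last exons and differ in the first, so their proteins have different substrate-binding parts and a common sugar-binding part. The Ugt2 genes chosen here are separate genes that lie close together on chromosome 5, and the Ugt3a genes lie on chromosome 15. In liver these genes are used mainly by hepatocytes, under the control of the HNF factors and of sensors of foreign compounds such as the pregnane X receptor, CAR and the AhR. In a piece of liver, fewer cells of a type and less RNA per cell cannot be told apart.

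The 6 arrays correlated at r between 0.906 and 0.986 across the tested genes. Vascepa replicate 3 stood farthest from the others, with a mean r of 0.938. The mean level of 81 small nucleolar RNA probes was 5.47, 6.56 and 7.09 log2 units in Vascepa replicates 1, 2 and 3, and 5.61, 6.44 and 5.85 in vehicle replicates 1, 2 and 3. That level thus varied more between arrays of a group than between the group means. Markers of the hepatocyte were bright on every array, with the mean over 8 genes between 11.83 and 12.23 in the Vascepa livers and between 12.08 and 12.23 in the vehicle livers. The lowest of these means was on Vascepa replicate 3. In the group means 7 of the 8 hepatocyte markers were lower, with a median difference of -0.11. Kidney and gut are other sites of Ugt expression. Of the 6 kidney tubule markers, 1 reached the intensity filter, Slc22a6, and the defining genes Umod, Kap and Slc34a1 lay under it. Of the 6 enterocyte markers, Fabp2 alone reached it, and Vil1, Lct, Sis, Cdh17 and Alpi lay under it. Fabp2 was bright, with a mean of 10.25 over the 6 arrays, and which cells gave its signal was not tested.

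Promoter sequences are shown for 6 members because they include genes that were highest and genes that were lowest on Vascepa replicate 3 and, with Ugt2b38, a promoter close to that of Ugt2b5. Each line gives the 120 bases before the annotated start, from RefSeq on GRCm38.p6, 5' to 3' in the gene's own direction. RefSeq windows were found for 9 of the 10 members, all but Ugt3a2. The stretches are chr1:88211839-88211958 on the plus strand for Ugt1a1, chr5:87337196-87337315 on the minus strand for Ugt2a3, chr5:86926504-86926623 on the minus strand for Ugt2b1, chr5:87140341-87140460 on the minus strand for Ugt2b5, chr5:87092556-87092675 on the minus strand for Ugt2b36 and chr5:87424204-87424323 on the minus strand for Ugt2b38. Capitals mark matches, in either direction, to the HNF1 half-site GTTAAT or the nuclear receptor half-site AGGTCA.
Ugt1a1: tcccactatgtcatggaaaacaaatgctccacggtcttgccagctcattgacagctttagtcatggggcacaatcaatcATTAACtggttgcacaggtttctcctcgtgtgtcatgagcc
Ugt2a3: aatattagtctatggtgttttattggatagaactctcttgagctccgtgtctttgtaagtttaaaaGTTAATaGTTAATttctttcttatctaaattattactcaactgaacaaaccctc
Ugt2b1: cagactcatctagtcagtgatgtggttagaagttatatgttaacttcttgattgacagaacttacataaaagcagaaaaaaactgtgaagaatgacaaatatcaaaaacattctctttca
Ugt2b5: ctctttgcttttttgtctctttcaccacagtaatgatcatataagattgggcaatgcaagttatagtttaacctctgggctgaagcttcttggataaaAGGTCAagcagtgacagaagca
Ugt2b36: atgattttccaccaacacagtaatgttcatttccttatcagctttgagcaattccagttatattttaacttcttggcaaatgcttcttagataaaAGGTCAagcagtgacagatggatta
Ugt2b38: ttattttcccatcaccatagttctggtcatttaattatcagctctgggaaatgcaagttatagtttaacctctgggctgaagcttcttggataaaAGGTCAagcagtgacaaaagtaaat

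In the 250 bases before the start, GTTAAT or its reverse complement was found in 3 of 9 members, Ugt1a1, Ugt2a3 and Ugt3a1, and in 6.43% of 32851 mouse promoter windows of that length. In Ugt2a3 it occurred at 54 and again at 47 bases before the start, and in Ugt1a1 at 41 bases before the start in the reverse direction. AGGTCA was found in 4 of 9 members and in 14% of all windows. It began 22 bases before the start in Ugt2b5, 25 bases before it in Ugt2b36 and in Ugt2b38, and 215 bases before it in Ugt2b35. Matches to the AhR core GCGTG, present in 28.2% of windows, and to the STAT5 site TTCNNNGAA, present in 7.02%, were found in 0 of 9 members. The windows of related genes are not independent: Ugt2b5 and Ugt2b38 were identical at 81.5% of aligned positions and Ugt2b5 and Ugt2b36 at 60.2%, while Ugt2b1 and Ugt2b5 were identical at 52.1%, close to the 47.7% between the windows of Ugt1a1 and Ugt3a1, genes of different subfamilies. A match is a description of letters and not of binding.

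Ugt1a genes, whose product Ugt1a1 is the enzyme that conjugates bilirubin, were read from a pair of probes, and neither separated the groups. The probe annotated with 5 symbols (Ugt1a1, Ugt1a5, Ugt1a6a, Ugt1a6b and Ugt1a7c) read 8.41, 8.06 and 7.55 log2 units in the Vascepa livers and 8.52, 7.89 and 8.19 in the vehicle livers. The mean difference, Vascepa minus vehicle, was -0.20 ± 0.28 (SE), with a 95% interval from -0.86 to 0.47 (limma, adjusted p = 0.985 over 20673 probes above the filter, of which 0% passed and 2.81% had an unadjusted p under 0.05). The lowest and the second highest of the 6 readings were both from Vascepa livers. A dimmer probe with 8 symbols, which adds Ugt1a2, Ugt1a9 and Ugt1a10, read 3.998, 3.52 and 3.15 in the Vascepa livers and 3.93, 3.53 and 3.71 in the vehicle livers. Its difference was -0.17 ± 0.26, with an interval from -0.78 to 0.44. The probes gave the arrays a similar order, and both differences turned sign without Vascepa replicate 3, at 0.032 and 0.035. Which Ugt1a gene these probes read cannot be told apart.

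Ugt2b1 was the tested member with the widest spread between arrays. It conjugates bisphenol A in the rat and is used more in male than in female mouse liver. It read 11.71, 11.32 and 10.38 log2 units in the Vascepa livers and 11.44, 11.08 and 11.26 in the vehicle livers. Vascepa replicate 1 was thus the highest of the 6 arrays and Vascepa replicate 3 the lowest. The groups averaged 11.14 ± 0.69 and 11.26 ± 0.18 (SD, n = 3 each), a difference of -0.12 ± 0.33 (SE) with a 95% interval from -0.89 to 0.65 (limma, adjusted p = 0.977). Without Vascepa replicate 3 the difference was 0.26, and without Vascepa replicate 1 it was -0.41, so its sign rested on single arrays. Ugt2b38, reported like Ugt2b1 as used more in males, lay under the intensity filter at 2.32, 1.99 and 1.22 in the Vascepa livers and 1.82, 1.73 and 1.08 in the vehicle livers. In a fit with no filter it differed by 0.30 ± 0.32, with an interval from -0.43 to 1.03 (limma, adjusted p = 0.967). That value rested on single arrays: it was 0.063 without Vascepa replicate 1, 0.068 without vehicle replicate 3 and 0.61 without Vascepa replicate 3 (limma, unadjusted p = 0.0469 in that last fit, which did not pass after adjustment).

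Ugt2b5 was higher in the mean of the Vascepa livers, by an amount that rested on single arrays. It read 9.10, 9.62 and 9.72 in the Vascepa livers and 9.18, 9.26 and 9.24 in the vehicle livers. Vascepa replicates 2 and 3 lay above every vehicle array and Vascepa replicate 1 below every one. The means were 9.48 ± 0.34 in Vascepa livers and 9.23 ± 0.037 in vehicle livers (SD, n = 3 each), a 1.19-fold difference upward, 0.25 ± 0.21 on the log2 scale (SE; 95% interval from -0.24 to 0.74; limma, adjusted p = 0.976). Leaving out Vascepa replicate 3 brought it to 0.13, and leaving out Vascepa replicate 1 brought it to 0.44. Its close relatives Ugt2b35 and Ugt2b36 differed less. Ugt2b35 read 7.29, 7.63 and 7.80 in the Vascepa livers and 7.27, 7.75 and 7.47 in the vehicle livers, a difference of 0.076 ± 0.22 (interval from -0.43 to 0.58) that was -0.00045 with each array centred on its median. Ugt2b36 read 9.41, 9.69 and 9.94 in the Vascepa livers and 9.40, 9.73 and 9.62 in the vehicle livers, a difference of 0.099 ± 0.21 (interval from -0.38 to 0.57). In both genes replicate 1 of each group was the lower end, and without Vascepa replicate 3 their differences became -0.037 and -0.031. That of Ugt2b35 was -0.038 without vehicle replicate 1. Sequence-related members of this cluster could bind each other's probes, which was not tested.

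Ugt2b34 and Ugt2a3 were lower in the mean of the Vascepa livers. Human UGT2A3 conjugates bile acids. Ugt2b34 read 10.73, 10.56 and 10.33 in the Vascepa livers and 10.68, 10.76 and 10.81 in the vehicle livers. Vascepa replicates 2 and 3 lay below every vehicle array, and Vascepa replicate 1 lay among them. Its difference was -0.21 ± 0.18 (SE; 95% interval from -0.63 to 0.21; limma, adjusted p = 0.976), and the exact two-sided permutation test over the 6 arrays gave p = 0.2, where 0.1 is the smallest this design allows. Leaving out 1 array at a time kept the difference between -0.30 and -0.10. Ugt2a3 read 9.92, 9.99 and 9.63 in the Vascepa livers and 9.91, 9.89 and 10.02 in the vehicle livers. Its difference of -0.093 ± 0.18 (interval from -0.51 to 0.32) rested on Vascepa replicate 3, without which it was 0.015.

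The Ugt3a genes belong to a branch whose human enzymes use sugars other than glucuronic acid: human UGT3A1 transfers N-acetylglucosamine and human UGT3A2 glucose or xylose. Ugt3a1 read 8.48, 8.04 and 8.44 in the Vascepa livers and 8.68, 8.32 and 8.44 in the vehicle livers, a difference of -0.16 ± 0.20 (SE; 95% interval from -0.63 to 0.31; limma, adjusted p = 0.976). Its lowest array was Vascepa replicate 2, and without that array the difference was -0.020. Ugt3a2 read 9.98, 9.90 and 9.76 in the Vascepa livers and 9.98, 10.16 and 10.01 in the vehicle livers. Vascepa replicates 2 and 3 lay below the vehicle arrays, and replicates 1 of the groups were nearly equal. The difference was -0.17 ± 0.17 (interval from -0.57 to 0.23), with an exact two-sided permutation p of 0.2.

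**Figure D1:**
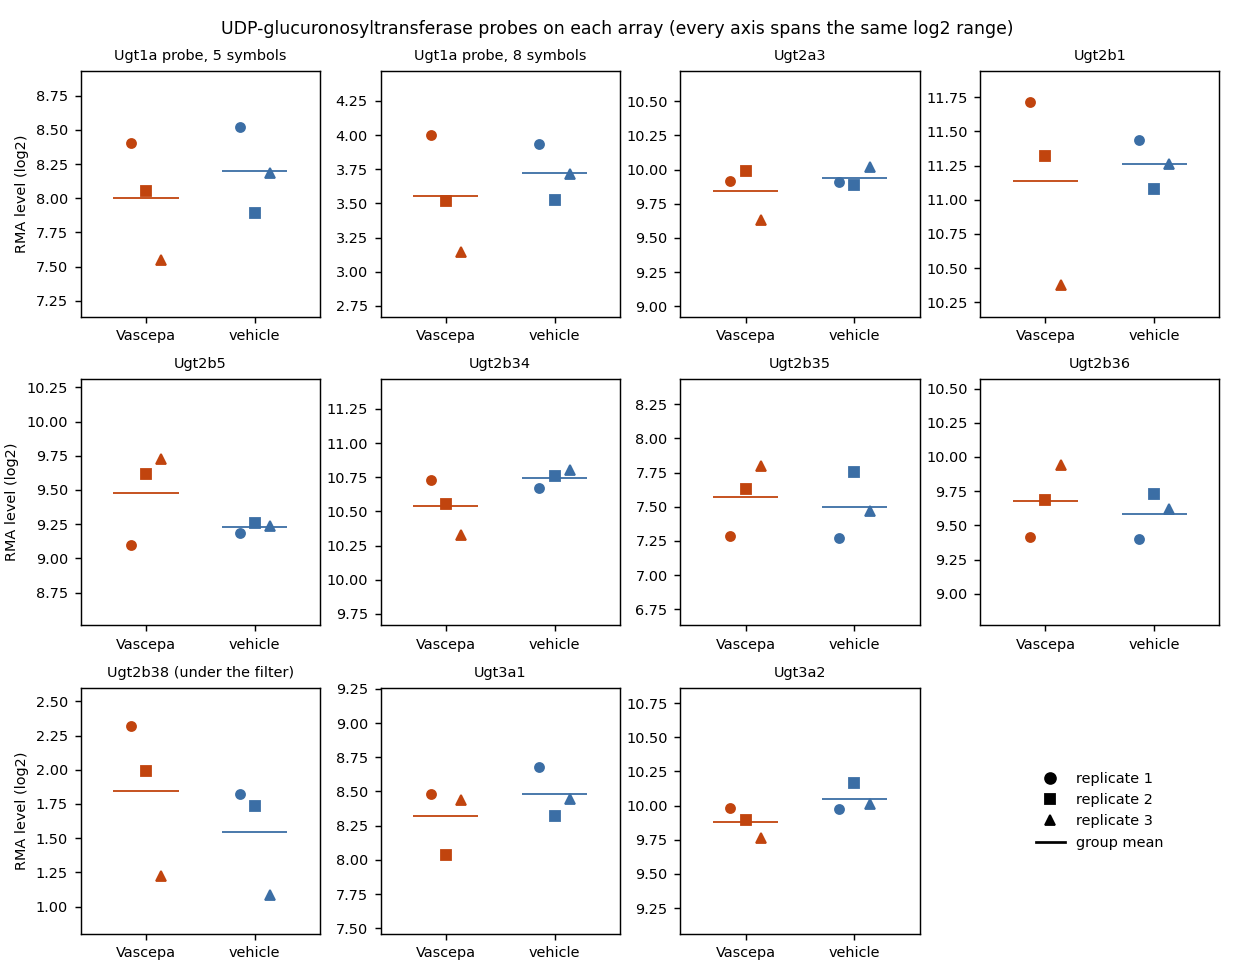
RMA level (log2) of the 11 probes on each array, with Vascepa left and vehicle right, symbols for replicates 1 to 3 and a line at each group mean. The groups overlap in every panel, and Vascepa replicate 3 (triangle) is the lowest Ugt2b1 reading at 10.38 and the highest Ugt2b5 reading at 9.72.

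Set against all genes, the family showed no group difference past the threshold. Of the 8 tested members, 0 passed at an adjusted p under 0.05 and 0 at an unadjusted p under 0.05 (limma). Over all 13493 genes these shares were 0% and 2.68%, with 0 and 362 genes. The 362 became 2018 without Vascepa replicate 1, 221 without Vascepa replicate 2, 198 without vehicle replicate 1 and 141 without vehicle replicate 3, while the tested members' count at an unadjusted p under 0.05 was 0 in each of these fits. The groups overlapped in all 8 members, against 8.24% of all genes in which they did not. In the mean 5 members were lower and 3 higher, and 60.1% of all genes were lower. The count of lower members was 6 with each array centred on its median, with the small nucleolar RNA level as a covariate and without vehicle replicate 1, and 3 with array quality weights. The members' median difference was -0.11, beside -0.063 for all tested genes and -0.11 for the hepatocyte markers, of which 7 of 8 were lower. Leaving out 1 array at a time put the members' median between -0.18 and -0.034 and that of the hepatocyte markers between -0.24 and -0.046, with Vascepa replicate 1 left out at the low end and Vascepa replicate 3 at the high end of both. The part of the hepatocyte markers in the members' values was not tested. The widest of the 8 intervals, that of Ugt2b1, includes differences of nearly 1 log2 unit downward, so these arrays do not show that the groups were alike.

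**Figure D2:**
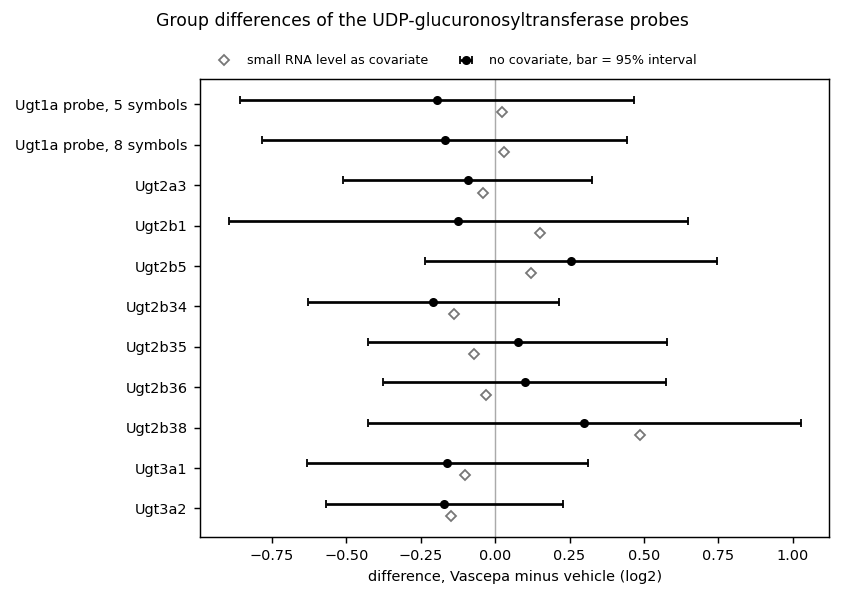
Difference, Vascepa minus vehicle (log2), for each probe, with filled circles and bars for the value and its 95% interval, and open diamonds for the value with the array's small nucleolar RNA level as a covariate. Every interval includes 0. With the covariate the sign turned in both Ugt1a probes, Ugt2b1, Ugt2b35 and Ugt2b36.

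Several members lay at the ends of their range on Vascepa replicate 3, some at the upper end and others at the lower. Ugt2b5, Ugt2b35 and Ugt2b36 were highest on Vascepa replicate 3, by 0.37, 0.26 and 0.31 log2 units above their own 6-array means. On the same array Ugt2b1 lay at -0.82 and the Ugt1a probes at -0.55 and -0.49. Vascepa replicate 1, with the lowest small nucleolar RNA level, had the reverse pattern: Ugt2b1 lay 0.52 above its mean and Ugt2b5 at -0.26 from its own. Vehicle replicate 1, the next lowest in those RNAs, had the lowest Ugt2b35 and Ugt2b36 readings and the highest reading of the 5-symbol Ugt1a probe. In 7 of the 8 members Vascepa replicate 3 was the lowest or the highest array, as it was in 61.8% of all tested genes. The standard deviation over replicates was larger in the Vascepa group for all 8 members, as for 71.5% of all genes.

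A model with the treatment and the array's small nucleolar RNA level gave a slope for each gene per log2 unit of that level. The slope of Ugt2b1 was -0.68 ± 0.17 (SE; limma, adjusted p = 0.0138). It was the only tested member past the threshold, among 28.3% of all genes that passed, 19.3% with a negative and 9.01% with a positive slope. The Ugt1a probes of 5 and 8 symbols had slopes of -0.54 ± 0.14 and -0.50 ± 0.13 (limma, adjusted p = 0.0430 and 0.0398, where 19.4% of all probes above the filter passed, 11.8% with a negative slope). Ugt2b35, Ugt2b5 and Ugt2b36 had positive slopes of 0.37 ± 0.14, 0.33 ± 0.14 and 0.32 ± 0.14 that did not pass (limma, adjusted p = 0.0736, 0.109 and 0.110). Slopes of Ugt2a3, Ugt2b34, Ugt3a1 and Ugt3a2 lay between -0.17 and -0.054. In the same model the treatment differences of the 8 tested members lay between -0.15 and 0.15. This model was fitted to 6 arrays and leaves 3 residual degrees of freedom per gene before moderation, and what the small nucleolar RNA level stands for in these samples was not tested.

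**Figure D3:**
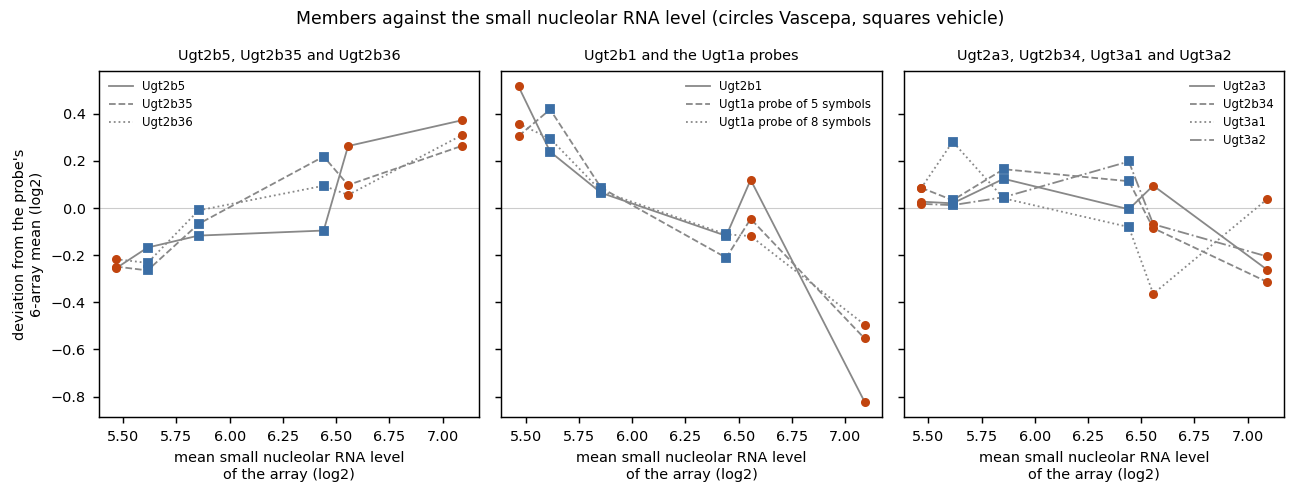
Deviation of each probe from its own 6-array mean (log2) against the array's mean small nucleolar RNA level (log2), with circles for Vascepa arrays and squares for vehicle arrays. Ugt2b5, Ugt2b35 and Ugt2b36 lie highest at the right end, on Vascepa replicate 3, where Ugt2b1 and the Ugt1a probes lie lowest, at -0.82, -0.55 and -0.49.

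Among the tested members only Ugt2b1 spanned at least 1 log2 unit over the 6 arrays, 1.34, and the genes nearest to its profile were looked up for it alone. Likeness was the root mean square difference over the 6 arrays between log2 profiles, each centred on its own mean. The nearest of the tested genes outside the family were Kctd9, Mansc1 and Fkbp15, at 0.013, 0.039 and 0.039 log2 units. Kctd9, for example, lay 0.52, 0.0996 and -0.82 from its mean in Vascepa replicates 1, 2 and 3 and 0.26, -0.12 and 0.059 in vehicle replicates 1, 2 and 3.

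Genes that supply or use glucuronic acid showed no difference past the threshold. All 5 tested supply genes were lower in the mean, with a median difference of -0.24, and none passed (limma, 0 of 5). The median was -0.13 without vehicle replicate 1 and -0.15 without Vascepa replicate 3. Without Vascepa replicate 3, and with the small nucleolar RNA covariate, 3 of the 5 were lower. Ugdh, which makes UDP-glucuronic acid, read 8.39, 8.05 and 8.17 in the Vascepa livers and 8.66, 8.10 and 8.56 in the vehicle livers, a difference of -0.24 ± 0.21 (SE) that was -0.13 without vehicle replicate 1 and -0.41 without vehicle replicate 2. Pgm2, a phosphoglucomutase gene of sugar phosphate metabolism, differed by -0.29 ± 0.16 with groups that did not overlap. Of 9 genes of glucuronate use and hydrolysis 6 were lower, with a median of -0.16 that lay between -0.22 and -0.072 when 1 array at a time was left out. Miox, an enzyme of inositol breakdown best known from kidney, differed by 0.42 ± 0.23, which was 0.25 without vehicle replicate 1 and 0.28 without Vascepa replicate 3. Its probe was dim, with a mean of 2.81, close to the filter level of 2.65. The vehicle mean of Miox, 2.59, lay under that level, so it was tested through its Vascepa arrays, with a mean of 3.02. Xylb, a xylulose kinase, differed by -0.46 ± 0.36, which was -0.074 without Vascepa replicate 3 (-0.82 with Vascepa replicate 1 left out). Genes of bilirubin formation had no stable direction, with 1 of 4 lower and a median of 0.038. With each array centred on its median 3 of 4 were lower (median -0.038), as with the small nucleolar RNA covariate (median -0.12), and leaving out 1 array at a time put the median between -0.10 without vehicle replicate 1 and 0.22 without Vascepa replicate 1. Hmox1, the inducible heme oxygenase, differed by -0.27 ± 0.17. As in Pgm2, the groups of Miox and Hmox1 did not overlap, which was so in 8.24% of all tested genes. Blvra, a biliverdin reductase, differed by 0.17 ± 0.26, which was 0.0051 without vehicle replicate 1, 0.37 without vehicle replicate 2 and -0.010 with the covariate. None of these genes passed (limma, adjusted p at least 0.976 for every gene named here).

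Carriers of conjugates lay on both sides of 0, with 5 of 7 tested genes lower and a median of -0.13. Abcc3, which exports glucuronides to the blood, read 8.06, 7.47 and 6.16 in the Vascepa livers and 8.25, 7.64 and 7.85 in the vehicle livers, a difference of -0.68 ± 0.45 (SE) that was -0.15 without Vascepa replicate 3 (-1.10 with Vascepa replicate 1 left out). Slco1a1, a male-biased uptake carrier, read 10.48, 10.47 and 9.28 in the Vascepa livers and 9.76, 9.08 and 9.32 in the vehicle livers. Its difference was 0.69 ± 0.36, which was 1.09 without Vascepa replicate 3 and 0.49 without either Vascepa replicate 1 or Vascepa replicate 2. Without Vascepa replicate 3 the list had 3 of 7 lower and a median of 0.091, with the small nucleolar RNA covariate 3 of 7 and 0.023, and without vehicle replicate 2 its median was -0.38. Its call count was 0 (limma).

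Regulators known to act on Ugt genes were lower in 9 of 11 tested cases, with a median of -0.38, where 60.1% of all tested genes were lower. The count was 7 of 11 with a median of -0.053 without Vascepa replicate 3. Without Vascepa replicate 1 it was 8 of 11, with a median of -0.74. Nr1i2, which encodes the pregnane X receptor, read 6.60, 6.54 and 5.96 in the Vascepa livers and 7.04, 7.18 and 7.02 in the vehicle livers. Its groups did not overlap, which was so in 8.24% of all tested genes. The difference was -0.71 ± 0.22 (SE; 95% interval from -1.22 to -0.21; limma, unadjusted p = 0.0118 and adjusted p = 0.976), or -0.51 without Vascepa replicate 3. Nfe2l2, which encodes NRF2, differed by -0.36 ± 0.26 and by -0.12 without that array, or by -0.56 without Vascepa replicate 1. Among targets of the same sensors 4 of 6 were lower, with a median of -0.15 that was -0.039 without vehicle replicate 2. Cyp4a14, a target of PPAR alpha, differed by -1.01 ± 0.19, and Gclc, a target of NRF2, by -0.37 ± 0.31. The Gclc value was -0.12 without vehicle replicate 1 and -0.14 with Vascepa replicate 3 left out, against -0.59 where Vascepa replicate 1 was left out. Cyp3a11, a target of the pregnane X receptor, differed by -0.20 ± 0.23 and was named after its value was seen, for its link to Nr1i2. Of the 11 regulators and 6 targets 0 passed (limma, adjusted p under 0.05). Nr1i2 and Cyp4a14, named for the smallest p in their lists, had an unadjusted p under 0.05 (limma), as did 2.68% of all tested genes.

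Sex-biased liver genes are given beside Ugt2b1 and Ugt2b38 because of the reported male bias of that pair. The lists were chosen with earlier results of these data known, so their medians are in part set by that choice. The female-biased list holds Cyp2b13, which had the lowest difference of all tested genes. Of 10 male-biased genes 9 were higher in the mean, with a median of 0.49, and 7 were higher with each array centred on its median. Both rested on single arrays: without Vascepa replicate 1, 6 of 10 were higher with a median of 0.075, without Vascepa replicate 2, 8 of 10 with 0.30, and without Vascepa replicate 3, 10 of 10 with 1.09. Hsd3b5, a dehydrogenase of steroid hormones, read 8.25, 8.45 and 5.87 in the Vascepa livers and 6.26, 5.93 and 5.87 in the vehicle livers, and Mup21, of the major urinary proteins, differed by 0.70 ± 0.28 (SE). Like Hsd3b5 and Mup21, Ugt2b1 was lower on Vascepa replicate 3 than on the other Vascepa arrays, while unlike Hsd3b5 it was no higher in the group mean. Being lower there was not particular to male-biased genes. The mean levels of the hepatocyte markers, the regulators and all tested genes were lowest on that array too. Mup20, a male-biased gene, read 12.53 there and 12.27 on Vascepa replicate 1. Without Vascepa replicate 3 the difference was 2.33 for Hsd3b5 and 0.26 for Ugt2b1. Of 7 female-biased genes 6 were lower, with a median of -0.67, among them Cyp2b13 and Abcd2, at -1.87 ± 0.32 and -1.39 ± 0.23. The median was -1.04 without Vascepa replicate 3. It was -0.45 without Vascepa replicate 1, -0.52 without Vascepa replicate 2 and -0.46 without vehicle replicate 3. None of these genes passed (limma, adjusted p at least 0.976).

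**Figure D4:**
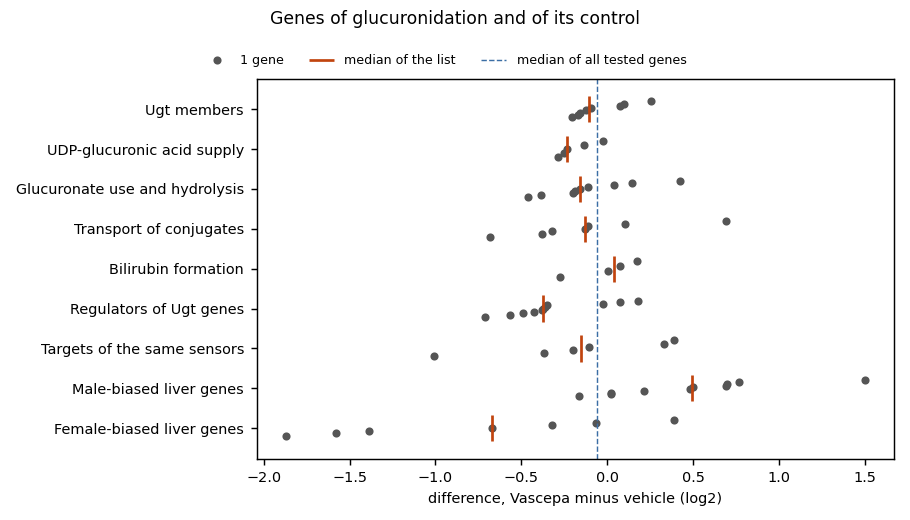
Difference, Vascepa minus vehicle (log2), of each tested gene (points), with the median of each list (vertical bar) and of all tested genes (dashed line at -0.063). The Ugt members lie between -0.21 and 0.25, while the female-biased list has its median at -0.67 and the male-biased list at 0.49. The female-biased median is the value of Hao2, whose Vascepa mean lay under the filter level. Members and lists were chosen with earlier results of these data known. 0 genes passed the adjusted threshold.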

How the data were processed

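Livers were measured on 6 arrays, 3 per group. The authors deposited log2 expression values for 41345 probes, made with Affymetrix Expression Console and RMA per the submitters' processing notes (versions: not given in the sources used here). The method quantile-normalizes arrays and compresses differences of dim probes. In the deposited values the median over all probes still lay between 2.62 and 2.81, highest on Vascepa replicate 3. On that array the mean over tested genes, 4.78, was the lowest. No scan date was used. Precision is limited by the number of arrays.

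The members and gene lists were chosen with earlier results of these data known. Of the probes 23521 had 1 symbol, 1814 several and 16010 none. Symbols came from the platform annotation. For 23328 probes the gene ID was found in a RefSeq table of GRCm38.p6, used for names only, and the symbol there was taken, whether or not it differed. Of several probes for a gene the brightest was taken, and each member had 1 probe. Groups were compared with limma 3.58.1 in R 4.3.3 (lmFit, eBayes), Benjamini-Hochberg over all tested genes. The fit was tested on simulated data with independent noise in each gene and array. That test does not cover changes that many genes share on an array. The labels do not say whether replicate numbers pair the samples, and the main fit did not pair them. Same-numbered deviations correlated at 0.606, 0.108 and -0.129, and differently numbered ones between -0.634 and 0.574, which cannot settle it. The members and other Ugt genes were named by rule, as were the 2 genes of each list with the smallest p and the 3 genes nearest in profile to a member spanning at least 1 log2 unit. Protein sequences were not used here. Promoters were aligned with Biopython 1.88.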

Additional observations from a re-analysis of the deposited data

How the results depend on the processing

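All 11 Ugt differences missed the adjusted threshold in every alternative except array quality weights, which put a weight of 39.5 on Vascepa replicate 2. That setting called 4100 of all tested genes, or 30.4% (5902 had an unadjusted p under 0.05, limma). It called 2 of the 8 tested members (Ugt2b5 at 0.38 and Ugt3a1 at -0.43), a smaller share than over all genes. It also called Ugt2b38 at 0.69 in a fit with no filter. In the glucuronidation, regulator and sex-biased lists it called 29 genes. These were 1 of 5 for supply, 1 of 9 for glucuronate use, 3 of 7 carriers and 2 of 4 for bilirubin formation. The rest were 7 of 11 regulators, 2 of 6 targets, 8 of 10 male-biased and 6 of 7 female-biased genes. Slco1a1 is in both the carrier and the male-biased list. Among markers it called 4 of 4 pancreatic acinar, 3 of 6 Kupffer and 1 of 4 skeletal muscle genes. The same weights turned Ugt2a3 to 0.0054 and Ugt2b1 to 0.047. With the small nucleolar RNA covariate Ugt2b1 turned to 0.15, Ugt2b35 to -0.072, Ugt2b36 to -0.030 and the Ugt1a probes of 8 and 5 symbols to 0.031 and 0.022, and 2 of all genes passed, both female-biased genes (Cyp2b13 and Cyp2b9), with 822 at an unadjusted p under 0.05. Centring each array on its median turned Ugt2b35 to -0.00045. The 362 genes at an unadjusted p under 0.05 became 757 with no intensity filter and 106 with the 75th percentile filter, where fewer genes were tested. The causes of the other changes were not tested.

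Leaving out 1 array at a time gave ranges of -0.16 to 0.015 for Ugt2a3, -0.41 to 0.26 for Ugt2b1, -0.038 to 0.22 for Ugt2b35, -0.031 to 0.23 for Ugt2b36, -0.39 to 0.035 and -0.40 to 0.032 for the Ugt1a probes of 8 and 5 symbols, and 141 to 2018 for the count of genes at an unadjusted p under 0.05. Ugt2b5, Ugt2b34, Ugt2b38, Ugt3a1 and Ugt3a2 kept their sign under all alternatives run, while leaving out 1 array moved Ugt2b5 between 0.13 and 0.44, Ugt2b38 between 0.063 and 0.61, Ugt3a1 between -0.24 and -0.020, Ugt2b34 between -0.30 and -0.10 and Ugt3a2 between -0.22 and -0.11. With replicate numbers as a replicate block, although the labels give only a number, 0 genes passed and 438 had an unadjusted p under 0.05 (limma), and no Ugt call or sign changed. Using other probes of a gene could not be tried, since each member had 1 probe. Counts of the lists under these settings were added after seeing the data. RMA compresses dim probes, which limits what can be said of Ugt2b38.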

Other observations

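Other Ugt probes gave values outside the chosen genes. Ugt8a, which makes galactosylceramide, read 2.64, 3.06 and 2.57 log2 units in the Vascepa livers and 2.78, 2.76 and 2.65 in the vehicle livers, close to the filter level of 2.65, a difference of 0.028 ± 0.20 (SE). Ugt2b37 lay just under the filter with a mean of 2.64. It read 2.88, 2.80 and 3.24 in the Vascepa livers and 2.40, 1.63 and 2.90 in the vehicle livers, a difference of 0.67 ± 0.31 in a fit with no filter (limma, adjusted p = 0.967). Its promoter window was identical to that of Ugt2b38 at 85.2% of aligned positions. The probe shared by Ugt2a1 and Ugt2a2 was dim, between 0.98 and 1.24 in the Vascepa livers and between 0.91 and 1.45 in the vehicle livers.

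Markers of other cells were read on the same arrays. Of 6 Kupffer cell markers 5 were lower, with a median of -0.36, and the mean level was 5.54, 5.75 and 5.87 in the Vascepa livers and 6.09, 5.96 and 6.03 in the vehicle livers. Of 4 tested skeletal muscle markers 3 were higher, and of 4 tested pancreatic acinar markers all 4, with medians of 0.42 and 0.29. Of 4 tested cholangiocyte markers 3 were higher, with a median of 0.083 that lay between -0.089 and 0.197 when 1 array at a time was left out. Without Vascepa replicate 1 the Kupffer median was -0.22, and without Vascepa replicate 3 the muscle median was 0.23. Their part in the values of the Ugt genes was not tested.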
